A study of Mus musculus with 12 samples.

Results

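The genes examined were the CLK kinases Clk1, Clk2, Clk3 and Clk4, the splicing activators Tra2a and Tra2b, and the kinases Srpk1 and Srpk2. All exonic and intronic rows of every transcript of these 8 genes were taken, out of 34079 genes with exonic values. GENCODE M1, a mouse gene annotation, holds 57 transcripts of the 8 genes, and 53 of them had an exonic and an intronic row in the deposited table. The cells were DTCM23/49 XY mouse embryonic stem cells (mESCs), grown in serum with leukemia inhibitory factor on gelatin and used as a single line, from 1 culture that was split into 2 biological replicates and passaged 8 times. All cells received 200 µM 4-thiouridine (4sU), a uridine analog that enters new RNA, for 15, 30 or 60 min. RNA was then sequenced as total RNA and as the labeled fraction isolated through its 4sU, which gave 6 labeled and 6 total libraries, 2 for each fraction and labeling time. The labels give no drug, genotype or other difference between the libraries, and unlabeled cells were not analysed here. Of the stem cell markers, all 8 were present in total RNA, with mean exonic abundances from 163 (Zfp42) to 6766 (Dppa5a). Markers of primitive endoderm and trophectoderm had means of at most 11.6, with Sox17 and Cdx2 at 0, those of mesoderm and fibroblasts at most 38.6 (Thy1), and the 3 measured neural markers from 25.5 (Neurod1) to 240.4 (Tubb3).

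CLK and SRPK kinases phosphorylate SR proteins, the serine- and arginine-rich factors that help to select splice sites. The CLK kinases do so mainly in the nucleus and the SRPK kinases mainly in the cytoplasm. Tra2a and Tra2b are SR-like activators of exon inclusion. CLK genes are known for detained introns, which stay in otherwise spliced, polyadenylated transcripts that remain in the nucleus until splicing is completed. Transcripts of Clk1 and Clk4 that lack exon 4 are known to encode a truncated protein without kinase activity or to enter nonsense-mediated decay (NMD). Tra2b contains a poison exon, an exon with early stop codons, whose inclusion its own protein promotes.

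The sequences below are shown because the transcripts compared later differ by these exons. They were read from the GENCODE M1 transcripts by transcript identifier, and positions are on mm9 (NCBIM37), whereas mm10 is the build named in the submitters' processing notes. Exon 4 of Clk1-001 (ENSMUST00000034868) lies on the minus strand of chromosome 1 from 58476965 to 58477055. Exon 4 of Clk4-001 (ENSMUST00000093132) lies on the plus strand of chromosome 11 from 51086580 to 51086670. Each is 91 bases long, and the capitals mark the 6 bases at which they differ, for an identity of 93.4%.
Clk1: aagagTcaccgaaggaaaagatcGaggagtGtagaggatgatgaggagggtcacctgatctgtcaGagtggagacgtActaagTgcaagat
Clk4: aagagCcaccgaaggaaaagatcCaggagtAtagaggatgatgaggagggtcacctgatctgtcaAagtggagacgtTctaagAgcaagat
Exon 4 of Clk2-001 (ENSMUST00000121212) is 85 bases long and lies on the plus strand of chromosome 3 from 88973540 to 88973624. Exon 4 of Clk3-201 (ENSMUST00000065330) is 97 bases long and lies on the minus strand of chromosome 9 from 57606434 to 57606530. None of the 4 lengths is a multiple of 3, so leaving the exon out shifts the reading frame.
Clk2: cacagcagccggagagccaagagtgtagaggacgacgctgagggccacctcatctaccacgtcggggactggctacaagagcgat
Clk3: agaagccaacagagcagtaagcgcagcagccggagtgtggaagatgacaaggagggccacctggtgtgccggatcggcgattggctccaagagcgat
The Tra2b poison exon is exon 2 of Tra2b-003 (ENSMUST00000162413), 276 bases on the minus strand of chromosome 16 from 22259059 to 22259334, and it has no overlap with an exon of the coding transcript Tra2b-001 (ENSMUST00000161286). Its first 81 bases are shown, and they end at the stop codon, which is in capitals.
Tra2b: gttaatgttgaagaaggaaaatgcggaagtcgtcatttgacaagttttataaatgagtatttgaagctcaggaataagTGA

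The deposited values were length-normalized abundances of the exons and of the introns of each transcript, scaled together to between 19988830 and 19992902 per library. Sequencing depth is therefore unknown from the values, and no counting interval was computed. Introns took 6.53% to 7.41% of the abundance in the 6 total libraries. In labeled RNA they took 14.8% and 13.9% in replicate 1 at 15 and 60 min, 9.35% and 10.8% at 30 min, but 7.24% and 6.99% in replicate 2 at 15 and 60 min. These last 2 libraries lay at or near the level of total RNA. Whether they were enriched less for new RNA or go against their labels could not be told from the files, and they enter every comparison, exonic ones included, as labeled RNA. The tests of introns and of the ratio between the fractions are also given without them, a choice made after the values were seen. A gene's value is the sum over its transcripts. How reads shared by transcripts were divided is not given in the sources used here, and among 73 sets of transcripts with the same introns the highest value was a median of 1.14 times the lowest. Sums may therefore grow with the number of annotated transcripts, but like values also arise if shared reads are split evenly, which keeps the sum. Levels are compared between genes by their coding transcript, which under such a split is lower in genes with more transcripts.

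Clk1 was the most abundant CLK gene and Clk3 the least. In total RNA the coding transcript Clk1-001 had a mean exonic abundance of 686 ± 114 (SD, n = 6), against 265 ± 25.6 for Clk4-001, 175 ± 28.0 for Clk2-001 and 40.3 ± 3.47 for Clk3-201. Tra2a-201, the only measured transcript of Tra2a, stood at 1290 ± 203 and Tra2b-001 at 806 ± 89.3. Srpk1-001 stood at 675 ± 47.6 and Srpk2-201 at 117 ± 21.0. These are levels per length in total RNA. Gene sums kept the order of the CLK genes, but the mean sum of Tra2b (3768) was above that of Tra2a (1290). The longest identical stretch between any of the coding transcripts within a family was 34 bases, between Clk1 and Clk4, which is shorter than the sequenced reads.

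**Figure D1:**
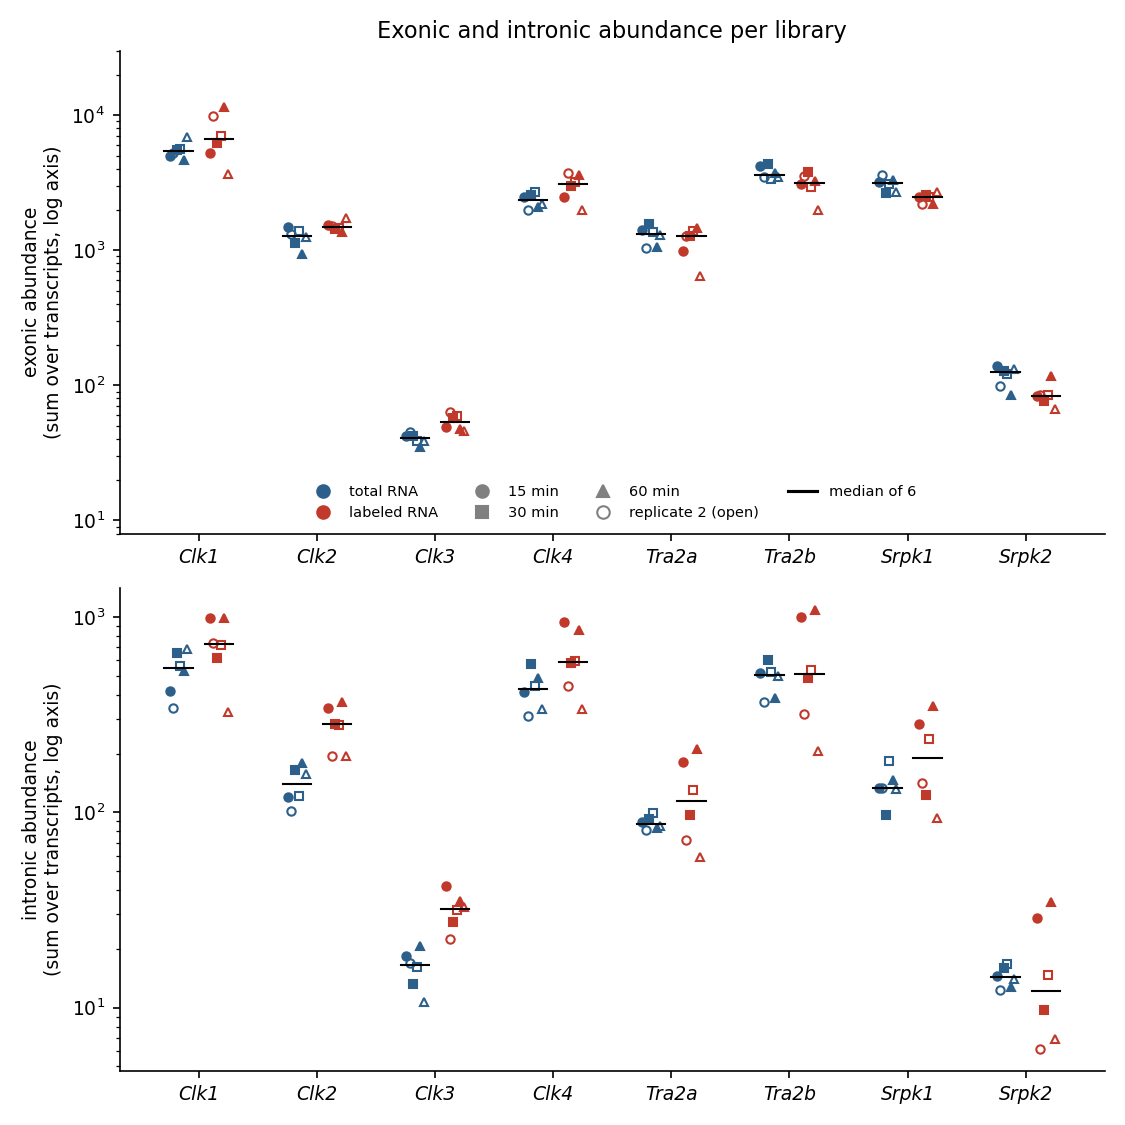
Exonic (top) and intronic (bottom) abundance of the 8 genes in each library, on log axes, as sums over the transcripts of a gene. Blue points are total RNA, red points labeled RNA, shapes give the labeling time, open symbols are replicate 2 and bars are medians of 6; the intronic values of Clk2 and Clk3 in labeled RNA lie above all total libraries.

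The exonic comparison asked which of the genes were over- or underrepresented in newly made RNA. The estimates for the 4 CLK genes were above 0 and those for the Tra2 and SRPK genes below 0, but none of the 8 passed the test (limma, labeling time as a covariate, adjusted p under 0.05), where 16.8% of the 13977 genes tested did. A replicate block paired each labeled library with the total library of its time and replicate, in place of the time covariate. With it, 1270 genes instead of 2353 passed, and still none of the 8. At an unadjusted p under 0.05, 4539 of all genes and 5 of the 8 members (Clk2, Clk3, Clk4, Srpk1 and Srpk2) passed.

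Clk1, a dual-specificity kinase of SR proteins, had exonic sums of 5268, 9800, 6184, 7037, 11499 and 3673 in labeled RNA, at 15, 30 and 60 min with replicate 1 before replicate 2. In the same order, its total libraries held 4993, 5280, 5558, 5602, 4671 and 6865. The labeled libraries spread on both sides of the total ones, highest at 60 min in replicate 1 and lowest at 60 min in replicate 2, and the log2 change was 0.31 (SE 0.25, limma adjusted p = 0.419). Clk4, its closest relative, had from 1994 to 3729 in labeled and from 1988 to 2679 in total RNA, a log2 change of 0.34 (SE 0.15, limma adjusted p = 0.147). Clk2 had a log2 change of 0.28 (SE 0.12, limma adjusted p = 0.121).

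Clk3 was the only member whose exonic values did not overlap between the fractions, a separation seen in 10.0% of all genes tested. Its labeled libraries ran from 45.7 to 63.5 with a median of 53.2, and its total libraries from 35.2 to 45.1 with a median of 40.5. The log2 change was 0.40 (SE 0.13, limma adjusted p = 0.0597), which passed with libraries centred on their median (adjusted p = 0.0334). With only the leading transcript of each gene tested the adjusted p was 0.0322. Clk3 has 1 measured transcript, so its values were the same there and only the other genes in the fit differed. It did not pass with the replicate block (adjusted p = 0.124), with no filter (adjusted p = 0.102) or without the 15 and 60 min labeled libraries of replicate 2 (adjusted p = 0.0873). The Clk3 gene overlaps the gene Edc3 on the opposite strand over 1789 bases, and whether reads were counted by strand is not given in the sources used here.

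Tra2b had from 1985 to 3780 in labeled RNA, with a median of 3170, and from 3381 to 4317 in total RNA, with a median of 3608. Its log2 change was -0.30 (SE 0.14, limma adjusted p = 0.159), and that of Tra2a was -0.17 (SE 0.18, limma adjusted p = 0.546). Srpk1 had from 2193 to 2719 in labeled and from 2649 to 3623 in total RNA, with a log2 change of -0.34 (SE 0.11, limma adjusted p = 0.0503). The change passed when the 15 and 60 min labeled libraries of replicate 2 were left out (log2 change -0.33, adjusted p = 0.0448), as that of no other member did. It did not pass with centred libraries (adjusted p = 0.160), the replicate block (adjusted p = 0.130) or the leading transcript (adjusted p = 0.442). For Srpk2 it was -0.45 (SE 0.17, limma adjusted p = 0.0953), and with centred libraries -0.43 (adjusted p = 0.0357). The adjusted p of Srpk2 was 0.182 with the block and 0.191 without the 15 and 60 min labeled libraries of replicate 2. The Srpk2 gene overlaps Mll5, on the opposite strand, over 880 bases. Clk4 likewise passed with centred libraries (log2 change 0.36, adjusted p = 0.0271), but not with the block (adjusted p = 0.211) or the leading transcript (adjusted p = 0.209).

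Introns of the members were then compared between the fractions, since unspliced RNA is a larger part of newly made RNA. Of the 8 genes, 7 passed the filter of a mean intronic abundance of 20, and Srpk2 did not, with means of 14.4 in total and 16.8 in labeled RNA. Clk3 passed the filter through its labeled libraries alone, with means of 16.0 in total and 31.9 in labeled RNA, so its call was largely fixed by the filter and is a description. Of the other 6, Clk2 alone rose in intronic abundance, where 32.6% of 9117 genes passed, nearly all of them higher in labeled RNA (2946 of 2976). With libraries centred on their median, by contrast, 756 genes were higher and 956 lower, and neither Clk2 nor Clk3 passed, while Tra2a was then called lower (log2 change -0.35, adjusted p = 0.0498). Without replicate 1, no member was called, where 1021 of 8134 genes were.

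Clk2 had intronic sums of 341, 194, 284, 281, 369 and 194 in labeled RNA, in the order above. In total RNA they were 120, 101, 165, 122, 178 and 156. Every labeled library lay above every total one, the 2 labeled libraries at 194 included, and such a separation was found in 17.2% of the genes tested. The log2 change was 0.96 (SE 0.25, limma adjusted p = 0.0116), and 0.26 (adjusted p = 0.232) with centred libraries. Without the 15 and 60 min labeled libraries of replicate 2 it was 1.21 (adjusted p = 0.000182).

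Clk3 had intronic values from 22.5 to 42.0 in labeled and from 10.7 to 20.6 in total RNA, again without overlap. Its log2 change was also 0.96 (SE 0.27, limma adjusted p = 0.0166), and 0.26 (adjusted p = 0.392) with centred libraries. Without the same pair of libraries it was 1.102 (adjusted p = 0.00114).

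Clk1 introns summed to 994, 740, 614, 720, 995 and 326 in labeled RNA and to 418, 342, 655, 560, 531 and 682 in total RNA. The groups overlapped, as the 60 min labeled library of replicate 2 was the lowest of all 12, and the log2 change was 0.41 (SE 0.30, limma adjusted p = 0.273). Clk4 had from 337 to 946 in labeled and from 311 to 578 in total RNA (log2 change 0.50, SE 0.28, limma adjusted p = 0.173), and its leading transcript alone was called (log2 change 0.63, adjusted p = 0.0469). Without the 15 and 60 min labeled libraries of replicate 2, the log2 change was 0.66 for Clk1 (adjusted p = 0.0110) and 0.80 for Clk4 (adjusted p = 0.0049), and 8354 of 9343 genes passed in that comparison. The median change over all genes tested was 0.65 with these libraries and 1.04 without them.

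Tra2b introns ran from 207 to 1089 in labeled and from 366 to 604 in total RNA. Replicate 1 at 15 and 60 min lay at 995 and 1089, above every total library, and replicate 2 at the same times lay at 319 and 207, below every one. The log2 change was 0.12 (SE 0.37, limma adjusted p = 0.803), and 0.66 (adjusted p = 0.0236) without the latter pair. Tra2a had a log2 change of 0.35 (SE 0.32, limma adjusted p = 0.379) and Srpk1 one of 0.44 (SE 0.34, limma adjusted p = 0.304). Without the same pair of libraries these were 0.78 (adjusted p = 0.0055) and 0.84 (adjusted p = 0.0087).

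**Figure D2:**
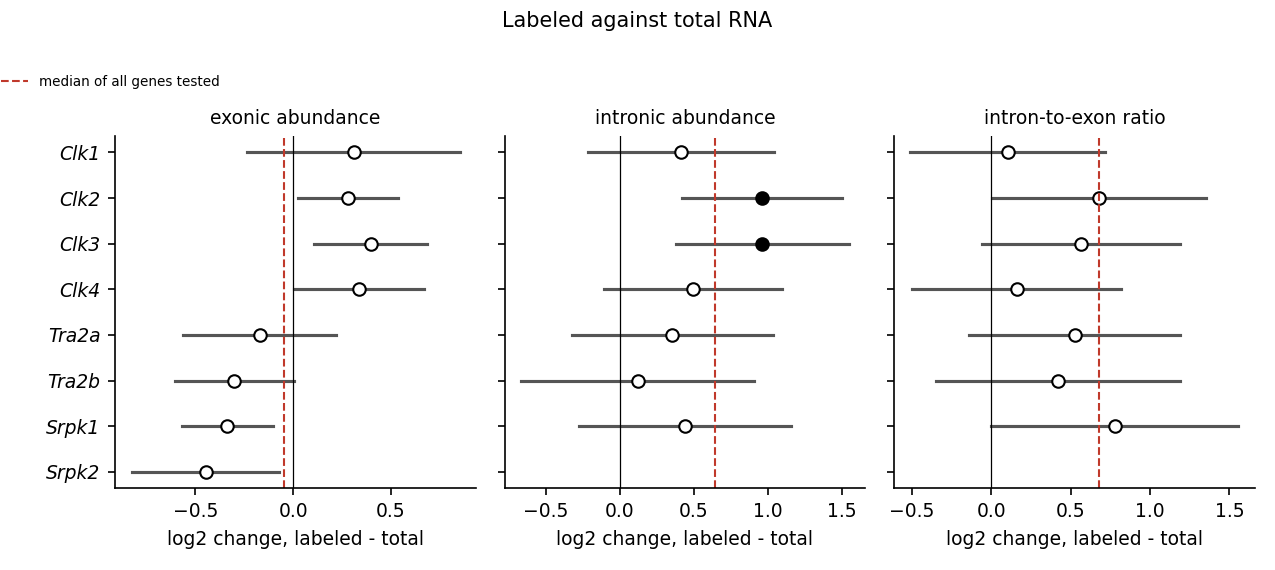
Log2 change of exonic abundance, intronic abundance and intron-to-exon ratio, labeled minus total RNA, with 95% confidence intervals from limma over 12 libraries. Filled points passed an adjusted p of 0.05, dashed lines are the medians of all genes tested (-0.05, 0.65 and 0.68), and the ratio of Clk1, at 0.10, and of Clk4, at 0.16, lie farthest below their dashed line.

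The intron-to-exon ratio, the intronic sum as a percentage of the exonic sum, was used to ask how much unspliced RNA the genes held. In total RNA, 7 of the 8 genes lay below the median of 19.7% over 7730 genes with mean exonic and intronic abundances of at least 20. That filter leaves out genes with low intronic values, Srpk2 among them, so medians and percentiles hold only among genes with measured introns. Clk1 had a ratio of 9.67%, at the 25.9th percentile, and Clk4 one of 18.3%, at the 47.0th. Clk2 had 11.2%, Srpk2 12.3%, Tra2b 12.8%, Tra2a 6.87% and Srpk1 4.42%. Clk3 alone lay above the median gene, with 39.6%, at the 73.1st percentile, and its value rested on the low intronic and exonic levels given above. The ratio is no measure of detained introns alone, because intron sequence held by annotated retained-intron transcripts counts as exonic. Such transcripts made up 27.0% of the exonic sum of Clk1, 25.6% of that of Clk2 and 43.7% of that of Clk4 in total RNA. They were 5 of 12, 4 of 11 and 7 of 14 measured transcripts, and the shares can grow with these numbers. Much of their sequence is exonic in the coding transcript, as only 12.7% of the bases of Clk1-008 lie in introns, against 80.5% for Clk4-014. The shares are therefore no estimate of RNA that retains an intron.

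The 8 genes were ordered by the mean over the 6 total libraries of the log2 ratio, with 1 added to intronic and exonic values, and neighbours were compared within libraries by an exact two-sided paired permutation test over 6 libraries, whose smallest possible p is 0.0312. On this scale the order from high to low was Clk3, Clk4, Srpk2, Tra2b, Clk2, Clk1, Tra2a and Srpk1, although Srpk2 exceeded Tra2b in only 2 of 6 libraries and lay below it by the ratio of means given above. Clk3 exceeded Clk4 by 1.16 ± 0.35 (SD, n = 6), Clk4 exceeded Srpk2 by 0.46 ± 0.21 and Tra2a exceeded Srpk1 by 0.67 ± 0.27, each in 6 of 6 libraries (exact permutation p = 0.0312, 0.0729 after Benjamini-Hochberg adjustment over the 7 pairs). Srpk2 and Tra2b differed by 0.05 ± 0.36, less than their spread (exact p = 0.75), as did Tra2b and Clk2 (0.18 ± 0.61, exact p = 0.5) and Clk2 and Clk1 (0.24 ± 0.33, exact p = 0.125). Clk1 exceeded Tra2a in 5 of 6 libraries, by 0.44 ± 0.41 (exact p = 0.0625). No pair passed after adjustment. The order was taken from the same 6 libraries, and a smallest p of 0.0312 leaves little room to pass over 7 pairs, so this settles no pair. With a pseudocount of 5, Clk4 exceeded Srpk2 by 0.18 ± 0.22 in 4 of 6 libraries and Srpk2 exceeded Tra2b by 0.33 ± 0.38 in 5 of 6. With the leading transcript of each gene, Clk4 exceeded Srpk2 by 0.24 ± 0.23 in 5 of 6 libraries and the order was Clk3, Clk4, Srpk2, Clk2, Tra2a, Tra2b, Clk1 and Srpk1. In the 6 labeled libraries the order was Clk3, Clk4, Clk2, Srpk2, Tra2b, Clk1, Tra2a and Srpk1. No pair passed in any of these.

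**Figure D3:**
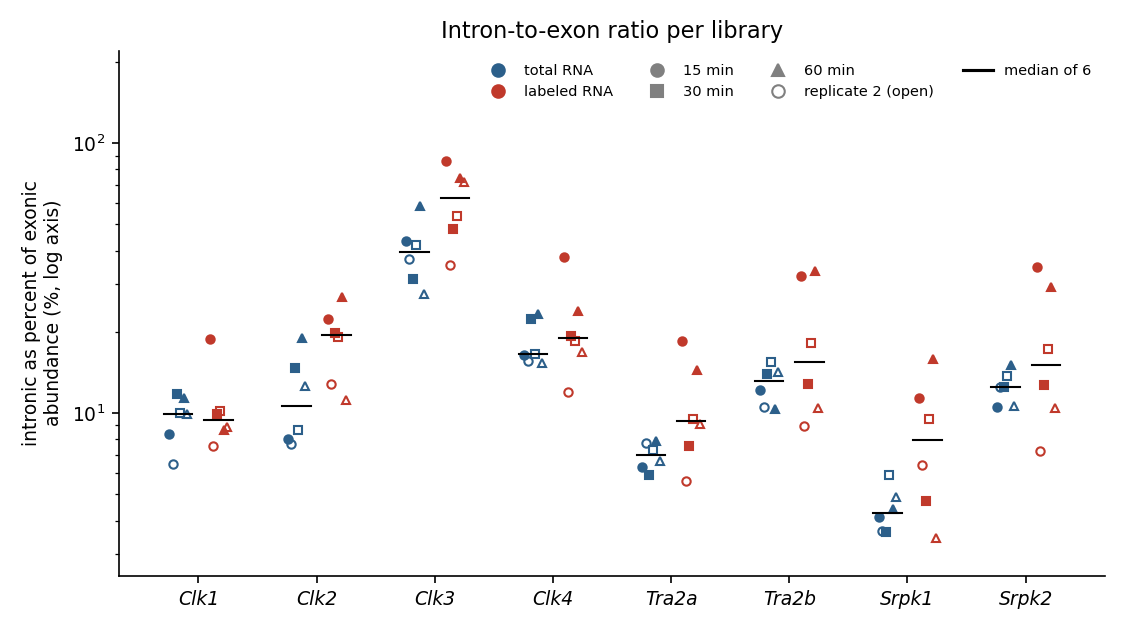
Intronic as a percentage of exonic abundance for the 8 genes in each library, on a log axis, with symbols as in the plot of levels. Clk3 lies highest and Srpk1 lowest in total RNA, and the labeled library of 15 min replicate 1 stands above the other Clk1 libraries, at 18.9%.

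Between the fractions, none of the 7 members tested passed for the ratio, against 28.2% of 7731 genes, where 2162 of the genes called were higher and 17 lower. With centred libraries 471 were higher and 419 lower. Nor did any of the 8 genes show labeled libraries wholly apart from total ones, which 11.1% of the genes tested did. Clk1 had ratios of 18.9%, 7.55%, 9.93%, 10.2%, 8.65% and 8.88% in labeled RNA and of 8.37%, 6.47%, 11.8%, 9.99%, 11.4% and 9.94% in total RNA. Apart from replicate 1 at 15 min, its labeled libraries lay within the range of the total ones, and the log2 change was 0.10 (95% confidence interval -0.51 to 0.72, limma adjusted p = 0.774). For Clk4 it was 0.16 (95% confidence interval -0.50 to 0.82, limma adjusted p = 0.678). The median over all genes was 0.68, and relative to it, with centred libraries, the change of Clk4 was -0.56 (SE 0.15, limma adjusted p = 0.0347) and that of Clk1 was -0.62 (SE 0.22, limma adjusted p = 0.0817).

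The other members had estimates nearer to the median gene. They were 0.68 for Clk2 (limma adjusted p = 0.108), 0.56 for Clk3 (0.145), 0.52 for Tra2a (0.194), 0.42 for Tra2b (0.356) and 0.78 for Srpk1 (0.112). Without the 15 and 60 min labeled libraries of replicate 2, all of these 5 genes passed, with changes from 0.73 (Clk3) to 1.17 (Srpk1), while Clk1 (0.26) and Clk4 (0.44) did not. The ratio used the same intronic filter, which Clk3 met through its labeled libraries alone, so its change is a description here too. The median over all genes was then 1.08 and 6522 of 7906 genes passed. That Clk1 and Clk4 differ from the other members was not tested.

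The ratio was also compared between labeling times, since introns leave labeled RNA as it is spliced. No gene passed by limma between 60 and 15 min in labeled RNA (10 of 7731 at an unadjusted p under 0.05), in total RNA (35) or for the difference of the 2 contrasts (31). For Clk1 the log2 change from 15 to 60 min was -0.44 in labeled RNA (95% confidence interval -1.62 to 0.73) and 0.53 in total RNA (95% confidence interval -0.64 to 1.70). For Clk4 it was -0.08 in labeled RNA (95% confidence interval -1.40 to 1.24). With 2 libraries a time, changes of more than 2-fold lay within every interval given.

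Processing rates were formed as labeled exonic abundance per hour of labeling over total intronic abundance, per labeling time. Averaged over the times, the rate of Clk1 was 37.9 per h (86.9th percentile of the same 7730 genes), against a median of 11.9 per h. These genes were filtered on intronic abundance, which is also the divisor of the rate. The rate of Srpk1 was 41.5 per h, that of Tra2a 31.2, Clk2 28.2, Clk4 17.8, Tra2b 16.1, Srpk2 13.9 and Clk3 7.91. For Clk1 it was 79.4 at 15 min, 21.8 at 30 min and 12.5 at 60 min, and the values of every member were lower at longer times. Labeled abundances are scaled to one total at each time before they are divided by the hours. Without replicate 1 the rate of Clk1 was 48.4 and without replicate 2 it was 30.3. The rates depend on that scaling and are given as a description, with no test.

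The transcripts of the genes show where intron sequence entered exonic values. Each retained-intron transcript was compared with the coding transcript by position in M1. Clk1-002 (ENSMUST00000156931) and Clk1-003 (ENSMUST00000129577) hold a single exon of 1642 bases that runs from exon 3 to exon 5 of Clk1-001, so introns 3 and 4, which flank the skipped exon 4, are included whole. Clk1-003 also includes intron 6, and 69.4% of its bases lie in introns of Clk1-001. Clk2-004 (ENSMUST00000138822) holds introns 3 and 4 of Clk2, with 32.8% of its bases in introns. Clk4-014 (ENSMUST00000148467) holds introns 3, 4, 7 and 8 of Clk4, with 80.5%. The same pair of introns is thus annotated as retained in 3 of the 4 CLK genes, while Clk3 has 1 annotated transcript and no such form.

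**Figure D4:**
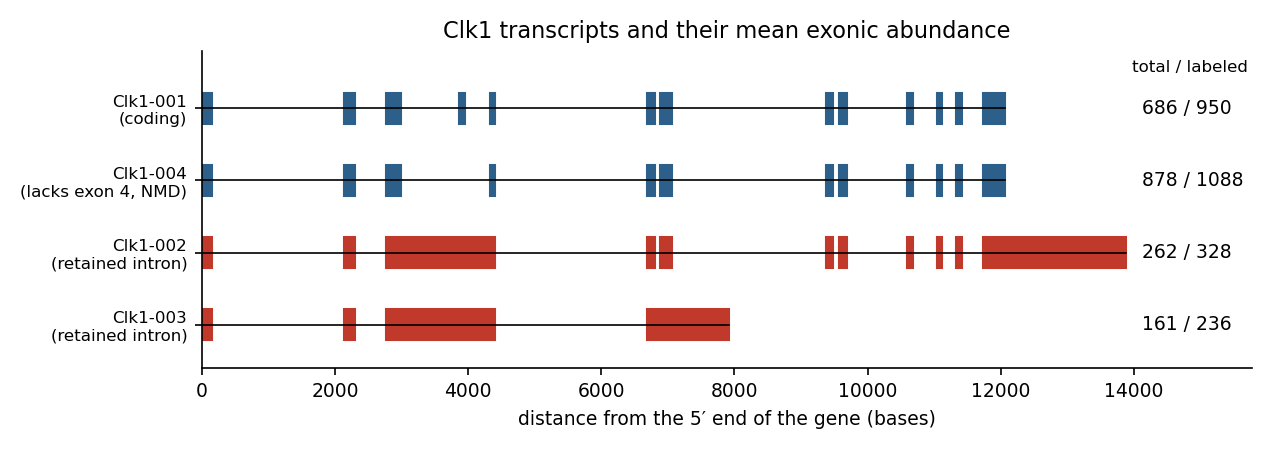
Exons (boxes) and introns (lines) of 4 Clk1 transcripts by distance in bases from the 5′ end of the gene, coding and NMD forms in blue and retained-intron forms in red. Numbers at the right are mean exonic abundances over 6 total and 6 labeled libraries; the wide box of Clk1-002 and Clk1-003 covers exons 3 to 5 of Clk1-001.

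In total RNA, Clk1-003 had a mean exonic abundance of 161 ± 25.0 (SD, n = 6), which is 23.4% of Clk1-001, and Clk1-002 had 262 ± 35.04, or 38.2%. The introns of Clk1-001 as a whole had 48.9, or 7.12% of its exons. Clk4-014 stood at 107 ± 11.7, or 40.5% of Clk4-001, whose introns had 17.7%. Clk2-004 stood at 89.5 ± 14.2, or 51.1% of Clk2-001, whose introns had 9.04%. In all 3 genes, transcripts that hold introns 3 and 4 therefore had a higher value per base than the introns of the gene as a whole, although these transcripts share exons with the spliced forms and their value is no measure of the introns alone.

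Of the 53 transcripts, all of which passed the filter, 7 changed between labeled and total RNA, against 17.3% of 45537 transcripts (7888). With the replicate block it was 2, against 4470 of all transcripts. No member transcript passed when either replicate was left out, where 0 of all transcripts passed without replicate 1 and 5 without replicate 2. Clk1-003 rose in labeled RNA, with values of 246, 285, 212, 219, 273 and 181 against 132, 164, 161, 135, 199 and 173 in total RNA. Only the 60 min labeled library of replicate 2 lay within the range of the total ones, and the log2 change was 0.55 (SE 0.14, limma adjusted p = 0.0243), which was 1 of the 2 kept with the block. Clk1-001 itself had a log2 change of 0.37 (SE 0.27, limma adjusted p = 0.372).

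Clk2-004 rose by 0.43 on the log2 scale (SE 0.12, limma adjusted p = 0.0334), from between 72.4 and 104 in total to between 106 and 137 in labeled RNA, with no overlap. With centred libraries its adjusted p was 0.0551. The coding transcript Clk2-001 had a log2 change of 0.15 (SE 0.15, limma adjusted p = 0.522). Clk4-012, a short form with intron 7, rose by 0.49 (SE 0.11, limma adjusted p = 0.0153), whereas Clk4-014 had a change of 0.54 (SE 0.18, limma adjusted p = 0.0544), which passed without the 15 and 60 min labeled libraries of replicate 2 (adjusted p = 0.0079). Clk3-201 rose by 0.40 (SE 0.12, limma adjusted p = 0.0425). With the replicate block, the adjusted p was 0.102 for Clk3-201, 0.0722 for Clk2-004 and 0.0584 for Clk4-012.

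Srpk1 supplied the 3 transcripts that fell in labeled RNA. Srpk1-003, a retained-intron form, fell by 0.59 on the log2 scale (SE 0.10, limma adjusted p = 0.0035), and was the other transcript kept with the block. The coding Srpk1-001 fell by 0.35 (SE 0.10, limma adjusted p = 0.0302) and Srpk1-002, an NMD form, fell by 0.34 (SE 0.10, limma adjusted p = 0.0387). With the block their adjusted p were 0.098 and 0.111, and with centred libraries 0.0857 and 0.154. By class, 17 of 22 retained-intron transcripts of the members had an estimate above 0 and 4 passed, beside 44.7% above 0 and 14.0% passing among 5251 such transcripts of all genes. Of the NMD forms, 6 of 8 were above 0 and 1 passed, beside 34.9% and 16.2% of 1836. Of the coding forms, 11 of 17 were above 0 and 2 passed, beside 33.5% and 19.1% of 18963. Transcripts of a gene share reads, so these counts are not of independent values.

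NMD and retained-intron transcripts were next set against the coding transcript of their gene within each library, which removes changes of the gene as a whole. The coding transcript was the one with the most exons, and the longest among equals. The groups of 6 did not overlap for 5 of the 30 transcripts of the members, beside 5.59% of 6744 such transcripts over all genes, and these ratios are given as a description with no test. Clk1-002, Clk1-004 and Clk1-008, which are among the 5, are divided by the same Clk1-001 values, so they are not separate events. Clk1-004 (ENSMUST00000148330), which lacks the exon 4 printed above, ran from 121% to 139% of Clk1-001 in total RNA, with a median of 126%. In labeled RNA it ran from 112% to 117%, with a median of 114%, below every total library. Clk1-002 was likewise lower in labeled RNA, at 31.0% to 36.4% against 36.8% to 42.9%, and so was the partial form Clk1-008, which lacks exon 4 and holds intron 6 (35.5% to 43.3% against 46.5% to 53.6%).

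Clk2-005 (ENSMUST00000128318), the Clk2 transcript without exon 4, went in the opposite direction relative to Clk2-001. It ran from 71.5% to 90.2% of Clk2-001 in total RNA, with a median of 85.3%, and from 94.8% to 101% in labeled RNA, with a median of 100.2%. The separation depended on that reference. Clk2-002, another coding form of 13 exons, had a log2 change of 0.30 (SE 0.14, limma adjusted p = 0.152), and Clk2-005 one of 0.39 (SE 0.14, limma adjusted p = 0.0844). In replicate 1 at 60 min, Clk2-005 and Clk2-002 had 119 and 93.9 in total RNA and 149 and 141 in labeled RNA. Relative to Clk2-002 the ranges therefore overlapped. Clk1-005, a Clk1 NMD form that lacks exons 4 and 7, did not follow Clk1-004. It ran from 89.6% to 108% of Clk1-001 in total RNA, with a median of 102%, and from 99.1% to 107% in labeled RNA, with a median of 101%, so its ranges overlapped. A difference between Clk1 and Clk2 in their forms without exon 4 was not tested. In Clk4 the partial NMD forms without exon 4, Clk4-006 and Clk4-007, had medians of 53.8% and 48.3% in total RNA and of 51.1% and 47.2% in labeled RNA, with overlapping ranges.

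Tra2b-003, the transcript with the poison exon printed above, was among the most abundant Tra2b transcripts, with a mean exonic abundance of 1010 ± 144 (SD, n = 6) in total RNA. It ran from 116% to 130.0% of Tra2b-001 in total RNA and from 130.1% to 139.9% in labeled RNA, so the fractions were separated by less than 1 percentage point. Its own log2 change was -0.38 (SE 0.17, limma adjusted p = 0.151) and that of Tra2b-001 was -0.50 (SE 0.16, limma adjusted p = 0.0519). The shift depended on the reference. The shorter coding form Tra2b-006 (1369 bases, against 3403 for Tra2b-001) changed by -0.37 (SE 0.15, limma adjusted p = 0.104), much as Tra2b-003 did. Tra2b-006 had means of 1171 in total and 927 in labeled RNA, above the 1010 and 800 of Tra2b-003. These forms share exons, so the value of Tra2b-003 is no measure of the poison exon alone. The retained-intron form Tra2b-002 had a median of 28.3% of Tra2b-001 in total and 48.4% in labeled RNA, with overlapping ranges. Among the retained-intron transcripts of the members, 15 of 22 had a higher median relative to the coding form in labeled RNA, beside 66.3% of 4996 such transcripts of all genes. For NMD forms it was 3 of 8, beside 50.3% of 1748.

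**Figure D5:**
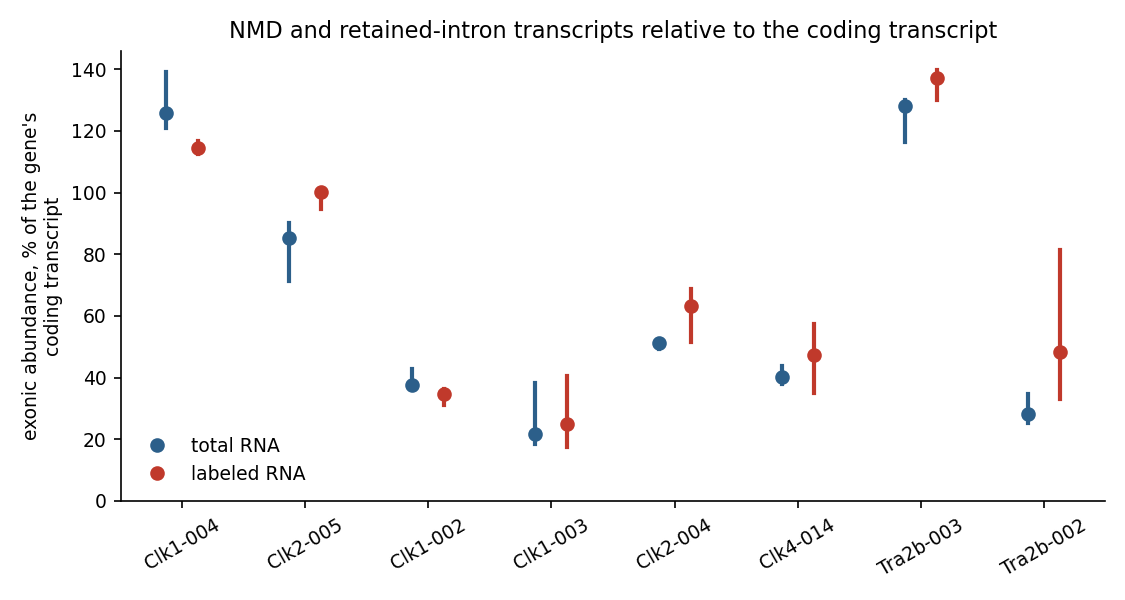
Exonic abundance of 8 NMD or retained-intron transcripts as a percentage of the coding transcript of their gene, with the median (point) and the full range (line) over 6 total (blue) and 6 labeled (red) libraries. Clk1-004 and Clk1-002 lie lower and Clk2-005 higher in labeled RNA without overlap.

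By annotated class, retained-intron forms made up 43.7% ± 1.71 (SD, n = 6) of the exonic sum of Clk4 in total RNA and 46.4% ± 2.32 in labeled RNA. In Clk1 they made up 27.0% ± 3.36 and 29.8% ± 5.80, and in Clk2 25.6% ± 0.995 and 28.6% ± 3.34. For Tra2b the shares were 15.2% ± 2.91 and 18.3% ± 4.58, and for Srpk1 53.2% ± 6.30 and 51.6% ± 4.75. In each of these 5 genes the ranges of the fractions overlapped. The shares can grow with the number of annotated forms and are no estimate of RNA that retains an intron. The coding form of Clk1 held 12.5% ± 0.663 of the exonic sum in total RNA, of 12 transcripts measured.

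The SR proteins, which the CLK and SRPK kinases phosphorylate, were tested as a list of 11 genes. Of the 10 tested, 4 rose in their intron-to-exon ratio and none fell, beside 28.2% of all genes called, and their median change was 0.51 beside 0.68 for all genes. Srsf9 had the largest change, of 1.68 (SE 0.43, limma adjusted p = 0.0135), followed by Srsf3 (0.87, limma adjusted p = 0.0456), Srsf7 (0.81, limma adjusted p = 0.0367) and Srsf6 (0.79, limma adjusted p = 0.0496). Srsf2, with the highest ratio in total RNA, had 96.4% there and 86.2% in labeled RNA (log2 change -0.25, limma adjusted p = 0.442). Exonic abundance fell in 1 of the 10, Srsf9 (log2 change -0.73, limma adjusted p = 0.0135), beside 16.8% of all genes called. Intronic abundance rose in 3 of the 10, beside 32.6%.

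Related kinases of the same CMGC family, including the Dyrk and Hipk kinases and Prpf4b, formed a list of 11 genes, of which 5 could be tested for the ratio and none passed. Their median change was 0.63. Exonic abundance fell in 2 of 8, Hipk1 (log2 change -0.60, limma adjusted p = 0.0070) and Prpf4b (log2 change -0.38, limma adjusted p = 0.0278), and none rose, beside 1615 of 13977 genes that fell and 738 that rose. Dyrk4 had the highest ratio in total RNA, 92.3%, at an exonic abundance of 9.08. Of the genes known for detained or retained introns, Ogt, Mgea5, Mat2a and Nxf1, 3 were tested for the ratio and none passed, with a median change of 0.66. Ogt, which attaches O-GlcNAc to proteins, had the highest ratio of these, 10.6%, and a log2 change of 0.18 (limma adjusted p = 0.599), and Mgea5, which removes it, fell in exonic abundance (log2 change -0.54, limma adjusted p = 0.0100), as 1 of the 4 genes.

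The genes whose log2 intron-to-exon ratio followed that of Clk1 most closely over the 12 libraries were Arfgap2 (Pearson r = 0.861), Ankzf1 (0.860), Mrps23 (0.832), Clk4 (0.830) and Snrnp27 (0.826), where the median gene had 0.487. For Clk4 they were Orc5 (0.958), Pdgfc (0.948), Ogt (0.938), Tspan13 (0.937) and Blvra (0.935), where the median gene had 0.667. All genes share the libraries and their intronic content, so these values describe likeness over 12 libraries of 2 cultures. With Clk1, the values of the other members ran from 0.325 (Srpk1) to 0.550 (Tra2b).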

How the data were processed

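The 12 libraries hold labeled and total RNA of mESCs given 200 µM 4sU for up to 60 min. The authors, per their methods and the labels, discarded rRNA reads with STAR 2.5.0, mapped the rest to introns and exons and ran RSEM. The deposited values are a score whose unit is not named: length-normalized abundances that sum to at most 19992902 in a library, with values of 1 or less missing. Missing values were taken as 0. Of 111672 Ensembl transcripts with exonic rows, 83847 were matched by identifier to GENCODE M1 genes.

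The fractions were compared on log2(value + 1), a scale that understates the change of low genes, with limma 3.58.1 (R 4.3.3). Each fit covered all genes or transcripts with a mean of at least 20, had labeling time as covariate and used limma's intensity trend, and p-values were adjusted by Benjamini-Hochberg at 0.05. The ratio was the log2 difference of intronic and exonic values. In the labels, a replicate number marks one of the 2 cultures of 1 line. The main fit has no term for culture, so its p-values measure the spread between libraries, taken as independent. They reach no further than these cultures. Deviations of labeled and total libraries of a culture correlated at -0.07, 0.05 and -0.19 at 15, 30 and 60 min over 13977 genes. As an alternative between the fractions, the replicate block paired the labeled and total library of each time and culture, in place of the time covariate. Other alternatives were a pseudocount of 5, no filter, missing values left out, centred libraries, no trend, the leading transcript and libraries left out. Python 3.11.15, numpy 2.4.6, pandas 2.3.3 and matplotlib 3.10.9 served for the rest. Only the fit of the ratio between the fractions was tried on simulated data, which had the same spread for all genes and no deviating libraries.

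The text names the 8 genes and their transcripts with a mean of at least 20. It names at most 4 genes of each other list past the threshold for the ratio, the gene of each list with the highest ratio in total RNA, and the 5 genes most like Clk1 and Clk4. Hipk1, Prpf4b and Mgea5 were named after their values were seen. The members and lists were chosen with earlier results of these data known.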

Additional observations from a re-analysis of the deposited data

Results flagged for a closer look

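Within the 6 labeled and within the 6 total libraries, the exonic abundance, intronic abundance and intron-to-exon ratio of each gene were checked for a library that stood apart by its gap over the range. Of 48 such groups, 2 held one, where 2.4 were to be met by chance at 1 in 20. The intron-to-exon ratio of Clk1 was 18.9% in the labeled 15 min library of replicate 1, against a median of 9.41% over the 6 labeled libraries. That library also had the largest intronic share of all 12 (14.8%), and the part of this share in the value was not tested. The exonic abundance of Srpk2 was 117.5 in the labeled 60 min library of replicate 1, against a median of 83.8.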

How the results depend on the processing

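Nearly all exonic calls were lost when either culture was left out. That also leaves fewer libraries to estimate the spread, so whether the calls rested on both cultures cannot be told from this. Over all genes, 2353 were called in exonic abundance, 0 without replicate 1 (1418 at an unadjusted p under 0.05), 4 without replicate 2, 2884 without the labeled 15 min library of replicate 2, 3292 without that and the 60 min library and 1270 with the replicate block. Over transcripts, 7888 were called, 0 without replicate 1 (4160 at an unadjusted p under 0.05 by limma), 5 without replicate 2, 10453 without the labeled 15 min library of replicate 2, 4470 with the replicate block and 12831 without the labeled 15 and 60 min libraries of replicate 2. For intronic abundance, 2976 genes were called, 1021 without replicate 1, 4959 without replicate 2, 4988 without the labeled 15 min library of replicate 2, 8354 without the 15 and 60 min pair, 4659 with no filter, 1308 with the leading transcript of each gene (of 4286 tested) and 1712 with centred libraries. For the ratio, 2179 were called, 288 without replicate 1, 3891 without replicate 2, 4838 without the labeled 15 min library of replicate 2, 6522 without the pair, 909 with the leading transcript (of 3535 tested) and 890 with centred libraries. The cause of these differences was not tested, except that fewer genes are tested with leading transcripts.

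Centring, which removes the higher intronic content of labeled libraries by construction, turned the direction of intronic changes in Srpk1 (-0.26), Clk4 (-0.21), Tra2b (-0.58), Clk1 (-0.29) and Tra2a (-0.35), and that of the ratio in Clk4 (-0.56), Tra2b (-0.30), Clk1 (-0.62), Tra2a (-0.20), Clk3 (-0.16) and Clk2 (-0.040). Between 60 and 15 min it gave -0.028 for Clk2 in labeled RNA, and -0.028 for Tra2a and -0.066 for Clk3 in total RNA. Leaving out libraries moved the intronic change between -0.012 and 0.89 for Srpk1, -0.47 and 0.71 for Tra2b and -0.10 and 0.81 for Tra2a, the ratio between -0.029 and 0.44 for Clk4 and -0.15 and 0.99 for Tra2b, and the exonic change of Clk1-004 between -0.0025 and 0.41. The leading transcript of Tra2b gave an intronic change of -0.025. Without replicate 1, neither Clk2 (0.81, limma adjusted p = 0.143) nor Clk3 (0.95, limma adjusted p = 0.131) was called in intronic abundance, and without replicate 2 Clk3 was not (0.97, limma adjusted p = 0.0711).

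With the replicate block no call of a member gene changed, and 5 of the 7 member transcripts lost theirs. The rate of Srpk1 was 174.4 per h by its leading transcript against 41.5 per h, and by the same measure those of Clk1, Clk2 and Tra2b were 53.4, 41.8 and 35.4 per h. For the labeling times, leaving out a replicate leaves 1 library a time and no count of calls was made. The paper gives read numbers only as averages over libraries. The depth of each library is unknown, so no limit of detection was set for the low introns of Clk3 and Srpk2.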

Other observations

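Levels of 2 short transcripts, chosen after their values were seen, varied more between the total libraries than the coding transcript of their gene. Clk1-007, a form of 2 exons at the 5′ end of Clk1, had 1037 in the labeled 15 min library of replicate 1 and 576 in the total 60 min library of replicate 1, against 125 in the total 30 min library of replicate 1. Clk1-001 had 609, 522 and 714 in the same libraries. Srpk1-007, at the 3′ end of Srpk1, ran from 566 to 1336 in total RNA, where Srpk1-001 ran from 594 to 735.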
